A study of Mus musculus with 68 samples.

Results

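The unfolded protein response (UPR) starts from a small set of proteins in the membrane of the endoplasmic reticulum (ER), and the mRNA of 9 genes of this set is described here in mouse embryonic fibroblasts (MEFs) exposed to tunicamycin (TM). The 9 genes are the sensor genes Ern1 (IRE1), Eif2ak3 (PERK), Atf6 and Atf6b, the IRE1 substrate Xbp1, the activating proteases Mbtps1 and Mbtps2, and the protease-activated transcription factors Creb3 and Creb3l2. They were picked by name for their roles, with earlier results of these data known, so the shares below are no independent test of the set. They make up 9 of the 13378 genes listed in either set of tables (9 of 13197 in the founder set and 9 of 12803 in the F1 set). All 9 passed the filter on low values in every genotype.

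The study asked how the transcriptional response to ER stress differs between mouse genotypes. MEFs came from 8 founder strains of the Collaborative Cross, namely 129 (129S1Sv/ImJ), A (A/J), B6 (C57BL/6J), CAST (CAST/EiJ), NOD (NOD/ShiLtJ), NZO (NZO/H1LtJ), PWK (PWK/PhJ) and WSB (WSB/EiJ), and from 5 F1 crosses of a B6 mother with 129, CAST, NOD, NZO or WSB, written B6x129 and so on. Cells received 2 ug/ml TM, which blocks N-linked glycosylation, or 0.1% DMSO as control, for 4 h, and the 68 mRNA-seq libraries analysed here hold 2 or 3 libraries of each genotype and treatment. Each line of MEFs was pooled from several female embryos of 1 litter, so a genotype stands for 1 mixture of littermates, and nothing in the sources ties its libraries to separate animals. The p-values below therefore measure the spread between these libraries, which may be technical. Values are the reads of a gene relative to the TMM-scaled size of its library (RPM), with no division by gene length, and are called levels here. Founders and crosses were scaled apart, so levels are compared only within each set.

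Misfolded protein in the ER lumen draws the chaperone BiP (Hspa5) away from the sensors. IRE1 then cuts the Xbp1 mRNA so that its spliced form encodes an active transcription factor, PERK phosphorylates the translation factor eIF2a and thereby lets ATF4 be made, and ATF6 moves to the Golgi, where the site-1 protease (Mbtps1) and then the site-2 protease (Mbtps2) release its transcription factor domain. Creb3 and Creb3l2 are cut by the same proteases, and Creb3l2 is known for its part in the secretion of collagen. All of these first steps act on protein or on a splice, which a gene's total mRNA does not show.

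The stretch that IRE1 removes is shown because Xbp1 is the gene with the largest change in what follows. It lies in exon 4 of Xbp1 (GRCm38, plus strand, chr11:5524259-5524324), and the 26 capitals at 5524279 to 5524304 are the bases removed.

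Xbp1: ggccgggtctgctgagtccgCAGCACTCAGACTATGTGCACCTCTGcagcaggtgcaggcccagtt

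Both ends of the stretch carry the cut site CNGCAGC, of which the Xbp1 coding sequence holds 3 copies but only 1 pair at this distance. The table counts reads per gene, so spliced and unspliced Xbp1 mRNA are added together in every value below.

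RefSeq start windows (GRCm38.p6, 250 bases before to 50 after the start) were at hand for 8 of the 9 genes, all but Atf6. They were searched on both strands for 5 motifs of this pathway. The ER stress element ERSE (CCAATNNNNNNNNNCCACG), which ATF6 and NF-Y bind, had no match in any of the 8, against 0.12% of all 32851 windows. ERSE-II, its compact form, is held by 0.04% of windows, the UPRE core TGACGTGG by 0.68% and the CRE TGACGTCA by 1.79%, and none of the 3 stood in the 8 windows. The CCAAT box, which is also part of ERSE and, on the other strand, of ERSE-II, and is found in 37.41% of windows, had 6 matches in Eif2ak3, 2 in Creb3l2 and 1 in Atf6b. Eif2ak3 is printed because 5 or more matches occur in only 0.27% of windows, a choice made after the counts were seen. Its 250 bases before the start (chr6:70844265-70844514, plus strand) have each CCAAT, or ATTGG for the other strand, in capitals.

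Eif2ak3: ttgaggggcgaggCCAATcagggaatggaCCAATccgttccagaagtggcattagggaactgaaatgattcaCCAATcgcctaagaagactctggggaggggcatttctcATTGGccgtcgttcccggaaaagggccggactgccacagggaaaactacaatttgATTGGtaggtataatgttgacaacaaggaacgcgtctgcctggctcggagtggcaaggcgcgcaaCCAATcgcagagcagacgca

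Averaged over the founders, TM raised Xbp1 2.27 fold, Eif2ak3 1.46 fold, Ern1 1.32 fold, Creb3l2 1.31 fold and Atf6 1.30 fold, and lowered Mbtps1 to 0.87 of control. Thus 5 of the 9 genes rose and 1 fell at adjusted p below 0.01 (limma, adjusted over all 13197 genes), where 20.5% of all genes rose and 21.9% fell. Averaged over the crosses, Xbp1 rose 2.19 fold, Eif2ak3 1.44 fold and Creb3l2 1.17 fold, and Mbtps1 fell to 0.82 of control, so 3 rose and 1 fell, against 16.9% and 18.7% of all 12803 genes. The median change of the 9 genes was 0.38 on the log2 scale in the founders and 0.15 in the crosses, beside -0.04 over all genes in each set. Changes are differences of log2(value + 0.1), and folds are taken from them.

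**Figure D1:**
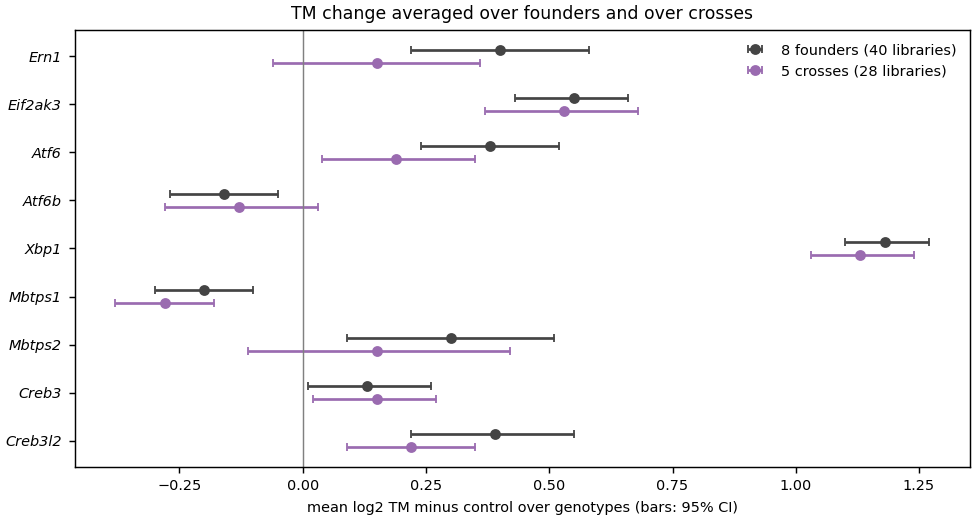
Change under TM (log2 of TM minus control) averaged over 8 founders and over 5 crosses, with 95% confidence intervals. Xbp1 stands apart at 1.18 and 1.13, Eif2ak3 follows at 0.55 and 0.53, and the intervals of Mbtps1 lie below 0 in both sets.

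Within single genotypes, where a gene was called at adjusted p below 0.01 if it also moved 1.5 fold or more, 8 of the 72 pairs of gene and founder were induced and 0 were lowered (limma). Over all genes, 2.4% of such founder tests were induced and 1.55% lowered. In the crosses 5 of 45 pairs were induced and 0 lowered, beside 2.54% and 1.47% over all genes. Of the pairs not called, 3 founder and 5 cross pairs had a change below 0 at an unadjusted p under 0.05 (limma). Those of the crosses were all in B6xNOD, the genotype with the most genes called lowered (573 of 12468). The share of all genes at that unadjusted p was not counted. By edgeR, 0 pairs were lowered in either set. Xbp1 took 5 of the 8 founder calls (B6, CAST, NOD, PWK and WSB), with Ern1 and Atf6 called in PWK besides, while B6 was the founder in which Eif2ak3 was called. In the crosses Xbp1 was induced in B6x129, B6xCAST, B6xNOD and B6xNZO, and Creb3l2 in B6x129. How many genes of any kind passed depended on the genotype, from 0.315% of genes induced in 129 to 6.36% in PWK among the founders. Counting only whether libraries overlap, all TM libraries lay above all controls in 33 of the 72 founder pairs and below them in 10, where 22.0% and 23.3% of all founder pairs did so. For the crosses the counts were 16 above and 6 below of 45, beside 19.0% and 20.0%.

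**Figure D2:**
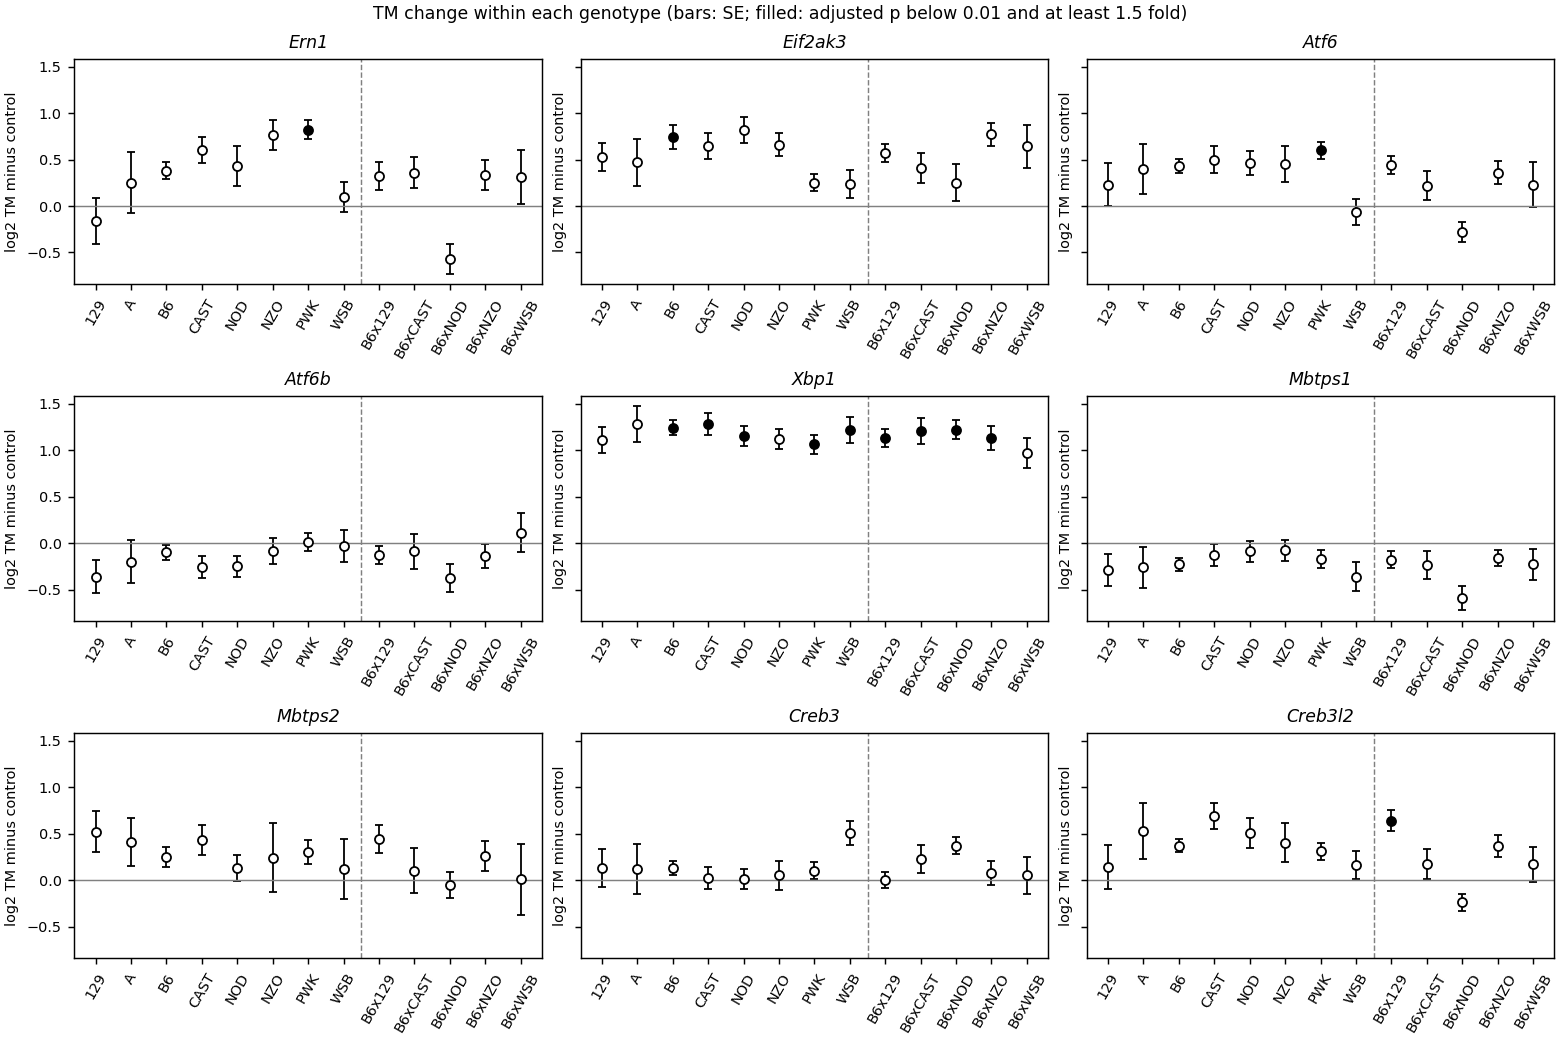
Change under TM (log2, ± SE) of each gene within each genotype, founders left and crosses right of the dashed line. Filled points passed adjusted p below 0.01 with at least 1.5 fold, which 8 founder and 5 cross points did, 9 of them in Xbp1.

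The depth of the libraries ran from 7091923 to 21530282 reads in the founders (median 11927033) and from 6442976 to 29528457 in the crosses (median 13025117). The 10 fibroblast markers were all listed and summed to levels of 24500 to 48900 in founder controls and 19800 to 42600 under TM, while in the same strains the group means of the summed lists reached at most 59.9 for myeloid, 12 for endothelial, 72.0 for epithelial, 35.8 for glial and 157 for muscle markers. In the crosses the highest such means were 16.2, 9.77, 22.8, 33.9 and 290. The myeloid sums there rest on 4 of 8 markers and the epithelial sums on 2 of 5, against 7 and 3 in the founders. The muscle values come from Des alone, since Myod1, Myog and Myf5 were not listed, and nor were the epithelial markers Epcam and Krt5. In bulk cells, fewer cells of a type and less RNA per cell cannot be told apart. Libraries also differed in how genes of long and short mRNA stood to each other. This was measured per library as the median log2 deviation of the genes with the longest mRNA (exon length of at least 7971 bases in the founders) minus that of the genes with the shortest (at most 2646 bases), and is called the length shift below. It was lowest in TM replicate 2 of A (-1.03), TM replicate 1 of B6xNOD (-0.87), TM replicate 1 of 129 (-0.85) and control replicate 1 of B6xWSB (-0.77). Averaged over a group, TM minus control was -0.64 in B6xNOD, -0.53 in WSB and 0.29 in CAST and in NZO. Within groups, the library-to-library deviations of Atf6 (exon length 9.23 kb) followed it with r = 0.95 over the 40 founder and r = 0.97 over the 28 F1 libraries, those of Ern1 (8.17 kb) with 0.93 and 0.94, and those of Creb3l2 (7.28 kb) with 0.93 and 0.80. Creb3 (2.37 kb) ran the other way (-0.95 and -0.92), as the plot of library deviations shows. For Xbp1 (3.25 kb) the values were -0.37 and -0.51, for Eif2ak3 (6.03 kb) 0.71 and 0.75, for Mbtps1 (10.54 kb) 0.70 and 0.49, for Mbtps2 (10.11 kb) 0.50 and 0.53, and for Atf6b (2.76 kb) -0.13 and 0.03. These are descriptions over libraries that share a group, and the part of the shift in each result was not tested beyond the fits named beside it.

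**Figure D3:**
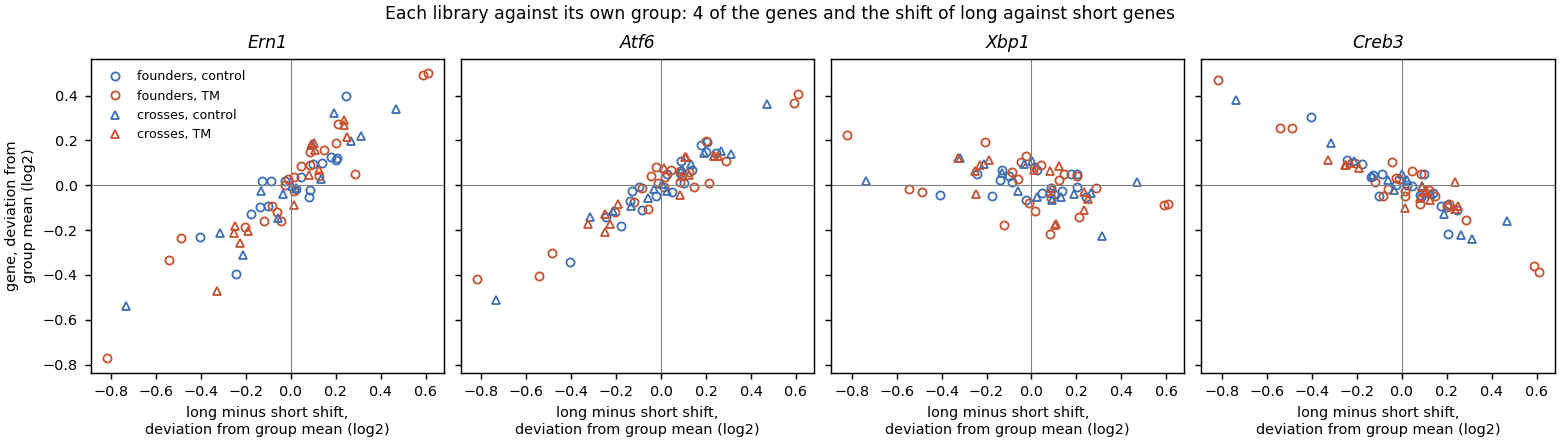
Deviation of each library from its group mean (log2) for 4 of the genes, against the deviation of its length shift. Founders and crosses differ in symbol and treatments in colour. In the founders r was 0.93 for Ern1, 0.95 for Atf6, -0.37 for Xbp1 and -0.95 for Creb3.

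Xbp1 (ENSMUSG00000020484, chr11:5520659-5525893, plus strand, GRCm38) encodes the transcription factor that IRE1 switches on by splicing, and is itself a known target of ATF6. In 129 the Xbp1 level was 109.8 and 106.0 in controls and 230.8, 251.0 and 219.2 under TM. In A it was 117.5, 120.5 and 125.1 in controls and 276.7, 343.6 and 266.6 under TM, and in B6 it was 111.4 and 101.5 in controls and 241.5 and 261.9 under TM. Every TM library of these strains was above every control. The CAST libraries read 94.7 and 101.2 in controls and 252.1 and 225.4 under TM. NOD gave 114.3 and 106.5 in controls and 261.2, 227.0 and 250.3 under TM, and NZO gave 125.6 and 128.0 in controls and 284.8, 274.4 and 270.6 under TM. These too lay wholly apart. PWK, the strain with the highest controls, gave 152.7, 141.7 and 142.1 in controls and 346.4, 308.0 and 260.1 under TM, and WSB gave 142.1 and 134.4 in controls and 351.4, 332.5 and 284.0 under TM. Levels with and without TM thus did not overlap in 8 of 8 founders, which 4.12% of all genes did. The change ran from 1.06 ± 0.10 (log2, SE) in PWK to 1.28 ± 0.19 in A and 1.28 ± 0.12 in CAST, and averaged 1.18 ± 0.04, a 2.27 fold rise (95% CI 2.14 to 2.41, adjusted p = 2.6e-20, limma). In 129, A and NZO the difference was 2.16, 2.43 and 2.18 fold, within the range of the called strains, but the within-strain adjusted p was 0.015, 0.022 and 0.011.

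**Figure D4:**
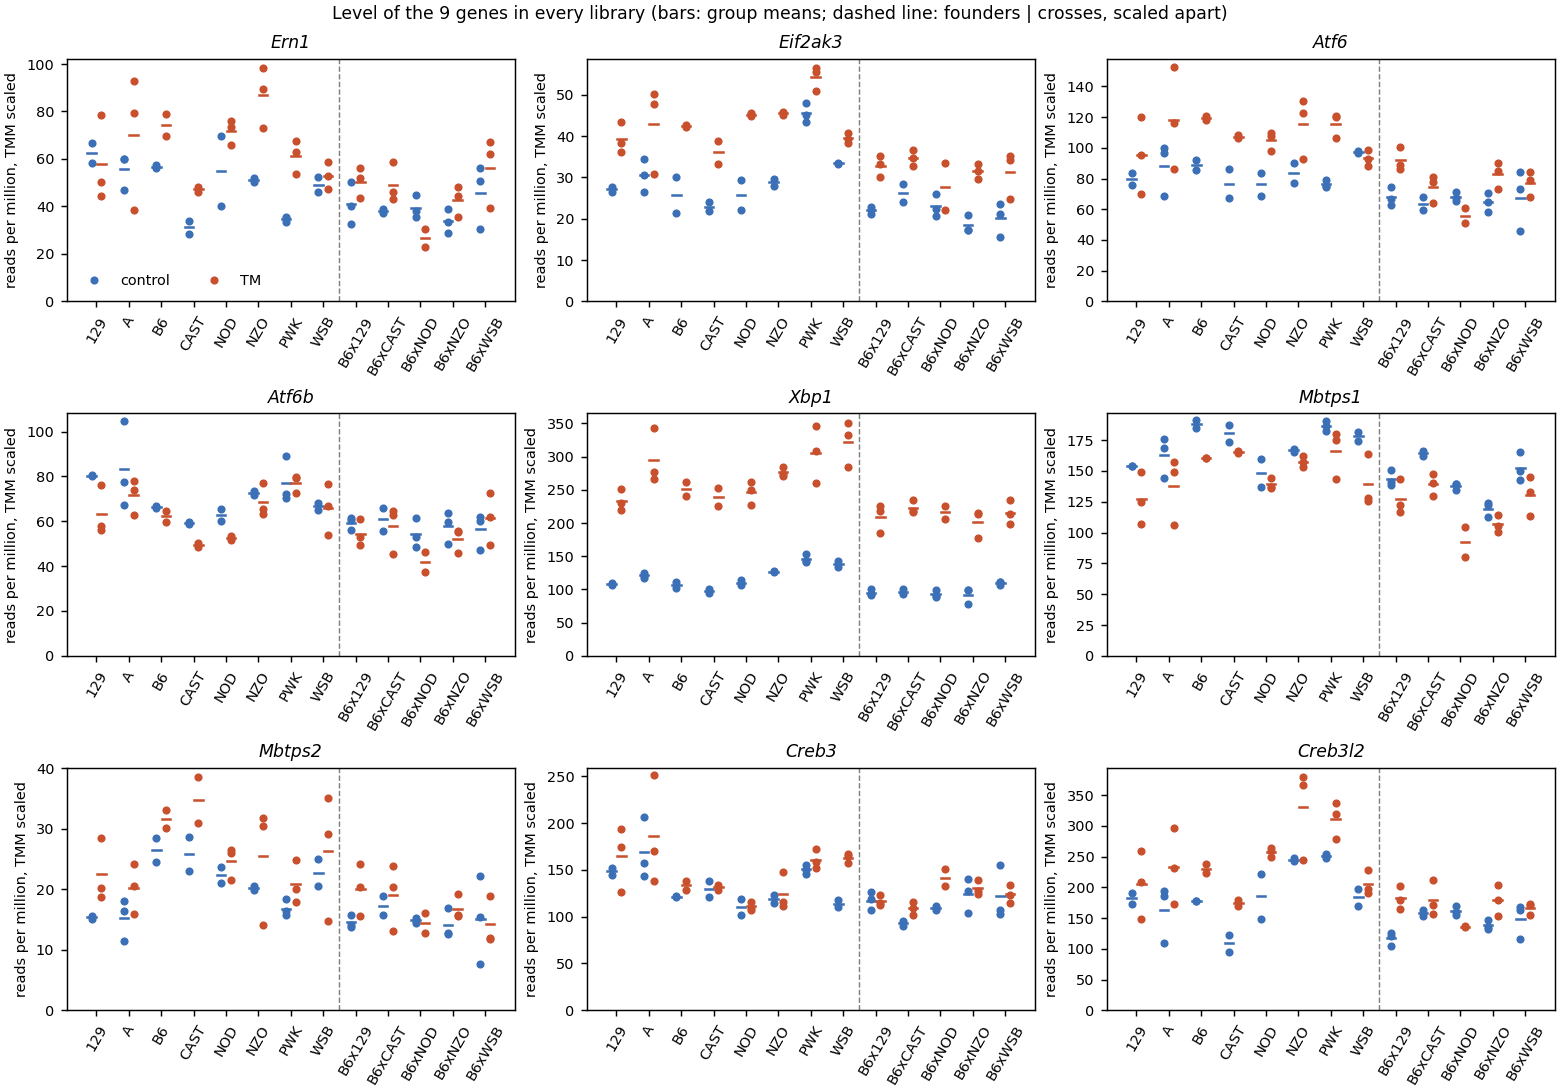
Level of the 9 genes (TMM-scaled reads as a share of the library) in each library by genotype, with group means as bars and controls and TM in different colours. Xbp1 is the gene whose TM libraries sit above its controls in all 13 genotypes.

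In the crosses Xbp1 levels were likewise apart. B6x129 had 91.5, 92.4 and 101.4 in controls and 225.1, 217.7 and 184.7 under TM, and B6xCAST had 100.3 and 93.1 in controls and 218.5, 234.1 and 217.1 under TM. B6xNOD had 90.6, 98.5 and 88.3 in controls and 225.3 and 206.6 under TM. In each of these crosses the lowest TM library was well above the highest control. B6xNZO had 99.8, 98.7 and 78.3 in controls and 213.4, 214.4 and 178.0 under TM, and B6xWSB had 111.0, 107.0 and 110.8 in controls and 234.3, 213.2 and 199.3 under TM. No TM library reached down to a control in 5 of 5 crosses, which held for 4.53% of all genes. The change lay between 0.97 ± 0.16 in B6xWSB (adjusted p = 0.043) and 1.22 ± 0.10 in B6xNOD, and averaged 1.13 ± 0.05 (2.19 fold, 95% CI 2.04 to 2.35, adjusted p = 1e-14, limma). With the length shift as a covariate the average changes were 1.19 in the founders and 1.11 in the crosses.

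Eif2ak3 (ENSMUSG00000031668, chr6:70844515-70905245, plus strand) encodes PERK, the kinase that holds back translation during ER stress. It was the sensor gene with the largest average rise in both sets. B6 had 30.2 and 21.4 in controls and 42.6 and 42.2 under TM. NOD had 22.2 and 29.5 in controls and 44.8, 45.5 and 45.3 under TM, and NZO had 28 and 29.7 in controls and 45.1, 45.9 and 45.6 under TM. In each of these strains TM and control libraries lay apart. CAST showed 21.8 and 24.1 in controls and 33.2 and 38.9 under TM, and 129 showed 27.6 and 26.6 in controls and 36.2, 38.4 and 43.4 under TM. In A, with 26.4, 34.4 and 30.7 in controls and 47.7, 30.9 and 50.3 under TM, replicate 2 under TM fell among the controls, which is the library with the lowest length shift. PWK went from 45.2, 43.5 and 47.9 in controls to 51.0, 55.4 and 56.6 under TM, and WSB from 33.3 and 33.5 in controls to 39.3, 40.8 and 38.3 under TM, the smallest changes, though their libraries did not overlap either. TM was above control without overlap in 7 of 8 founders and 4 of 5 crosses. Over all genes 22.0% of founder pairs and 19.0% of cross pairs did so, and the share of genes with as many was not counted. Changes ran from 0.24 ± 0.15 in WSB and 0.25 ± 0.09 in PWK to 0.82 ± 0.14 in NOD. The average was 0.55 ± 0.06 (1.46 fold, 95% CI 1.35 to 1.58, adjusted p = 2e-09, limma). In the crosses B6xNZO libraries were 17.2, 20.9 and 17.4 in controls and 31.6, 29.6 and 33.3 under TM, and B6x129 libraries were 22.8, 22.2 and 21.2 in controls and 30.0, 33.2 and 35.2 under TM. B6xCAST went from 24.0 and 28.4 in controls to 36.6, 32.8 and 34.7 under TM, and B6xWSB from 15.7, 23.6 and 21.2 in controls to 24.7, 35.1 and 34.3 under TM. The treatments lay apart in these crosses. B6xNOD, at 20.6, 22.3 and 26.1 in controls and 22.1 and 33.5 under TM, was the cross in which treatments overlapped, its lower TM library being the one with a length shift of -0.87. The cross average was 0.53 ± 0.08 (1.44 fold, 95% CI 1.29 to 1.60, adjusted p = 4.9e-06), and 0.59 with the shift as a covariate.

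Ern1 (ENSMUSG00000020715, chr11:106394650-106487852, minus strand) encodes IRE1, at once a kinase and the RNase that cuts Xbp1. PWK showed the clearest rise, with 35.0, 35.5 and 33.4 in controls and 53.7, 62.9 and 67.7 under TM (1.76 fold, adjusted p = 6.9e-05, limma). CAST went from 28.5 and 34.0 in controls to 46.3 and 48.1 under TM, NZO from 50.4 and 51.8 in controls to 98.3, 89.3 and 73.2 under TM, and B6 from 56.1 and 57.4 in controls to 78.9 and 69.6 under TM. These strains too had no overlap, at 1.51, 1.69 and 1.31 fold, while the other founders overlapped. In A the levels were 47.0, 59.8 and 60.2 in controls and 92.8, 38.4 and 79.3 under TM, and in 129 they were 58.3 and 66.8 in controls and 44.4, 50.2 and 78.7 under TM, where the low TM values of 38.4 and 44.4 belong to the 2 founder libraries with the lowest length shift. NOD had 40.1 and 69.7 in controls and 75.8, 73.3 and 65.8 under TM, and WSB had 46.0 and 52.5 in controls and 52.8, 58.7 and 47.2 under TM. The founder average was 0.40 ± 0.09 (adjusted p = 0.00038), with a change above 0 in 7 of 8 strains. It was 0.47 without the libraries of lowest shift and 0.39 ± 0.04 with the shift as a covariate. In the crosses the average of 0.15 ± 0.10 did not pass (adjusted p = 0.24). There B6xNOD ran opposite to the others, with 35.5, 38.2 and 44.7 in controls and 22.8 and 30.7 under TM, no overlap and a change of -0.57 ± 0.16 (adjusted p = 0.041), and its TM libraries had length shifts of -0.87 and -0.37. The changes in the other 4 crosses lay between 0.31 and 0.36. B6xCAST had 37.3 and 38.8 in controls and 58.8, 45.9 and 43.0 under TM without overlap. B6x129 had 40.1, 50.4 and 32.5 in controls and 43.6, 51.9 and 56.0 under TM, and B6xNZO had 29.0, 33.5 and 39.1 in controls and 44.3, 35.4 and 48.3 under TM, both with overlap. B6xWSB had 30.4, 50.6 and 56.0 in controls and 39.5, 62.1 and 67.2 under TM, where replicate 1 was the lowest library of each treatment. With the shift as a covariate the cross average was 0.26 ± 0.05 (adjusted p = 3.4e-05), so the call for Ern1 in the crosses depends on that term.

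Atf6 (ENSMUSG00000026663, chr1:170704674-170867771, minus strand) encodes the sensor that becomes a transcription factor after its cleavage. In PWK its level was 74.9, 74.6 and 79.2 in controls and 106.2, 120.1 and 120.7 under TM (1.51 fold, adjusted p = 0.00025, limma), and in B6 it was 91.8 and 85.7 in controls and 120.7 and 118.4 under TM (1.35 fold). CAST gave 67.0 and 85.9 in controls and 106.6 and 108.0 under TM. PWK, B6, CAST, NOD and NZO had all TM libraries above control, and 129, A and WSB did not. WSB had 96.5 and 97.6 in controls and 98.6, 92.8 and 88.3 under TM, a change of -0.06 ± 0.14 beside a length shift of -0.53 for TM minus control. The founder average was 0.38 ± 0.07 (1.30 fold, adjusted p = 3.5e-05) and 0.37 ± 0.03 with the shift as a covariate. In B6x129 the level was 66.4, 74.7 and 62.6 in controls and 86.5, 89.0 and 100.2 under TM, and in B6xNZO it was 58.2, 64.4 and 70.6 in controls and 85.1, 73.2 and 90.1 under TM. In B6xNOD it was 65.1, 67.0 and 71.1 in controls and 50.8 and 60.8 under TM. Of these, B6x129 and B6xNZO were higher without overlap and B6xNOD lower. The cross average of 0.19 ± 0.08 missed the threshold (adjusted p = 0.037) and passed it with the shift as a covariate, at 0.28 ± 0.03 (adjusted p = 9.5e-08). Atf6b (ENSMUSG00000015461, chr17:34647146-34655074, plus strand), the close paralog of Atf6, had average changes below 0 in both sets. Its founder libraries ranged from 58.9 to 104.7 in controls and from 48.5 to 79.7 under TM, with a change of -0.16 ± 0.05 (adjusted p = 0.015), and all TM libraries lay below the controls in 129, B6, CAST and NOD. In the crosses the change was -0.13 ± 0.07 (adjusted p = 0.17). Neither average for Atf6b passed, though that of the founders did with the shift as a covariate (adjusted p = 0.009) and with weighted libraries (adjusted p = 0.0013).

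Mbtps1 (ENSMUSG00000031835, chr8:119508156-119558735, minus strand), the site-1 protease that makes the first cut in ATF6 and in the sterol regulator SREBP, was the only one of the 9 whose average passed the test below 0, in both sets. B6 went from 185.2 and 191.1 in controls to 160.9 and 160.8 under TM, and WSB from 174.2 and 181.8 in controls to 125.3, 128.4 and 164.0 under TM. PWK showed 186.4, 182.7 and 190.9 in controls and 143.3, 175.4 and 179.9 under TM. The TM libraries were below all controls in 6 of 8 founders, the exceptions being A and NOD, where 23.3% of all founder pairs were. The change was negative in 8 of 8 strains, from -0.08 ± 0.11 in NZO to -0.36 ± 0.16 in WSB. The average was -0.20 ± 0.05 (0.87 of control, 95% CI 0.81 to 0.93, adjusted p = 0.0012, limma). All 5 crosses were negative as well, with -0.28 ± 0.05 on average (adjusted p = 7.9e-05). B6xNOD had the largest difference, from 139.5, 139.6 and 134.5 in controls to 80.4 and 104.9 under TM, a change of -0.59 ± 0.13 (adjusted p = 0.018). With the shift as a covariate the averages were -0.21 and -0.26, and both were called. Mbtps2 (ENSMUSG00000046873, chrX:157535371-157598715, minus strand), the site-2 protease gene on the X chromosome, was the scarcest of the 9 per kb of exon. Its founder levels were 11.4 to 28.7 in controls and 14.1 to 38.5 under TM. All 8 changes were above 0, from 0.12 ± 0.32 in WSB to 0.52 ± 0.22 in 129, but the average of 0.30 ± 0.10 did not pass (adjusted p = 0.015), and it did with the shift as a covariate (0.29 ± 0.09, adjusted p = 0.005). In the crosses it was 0.15 ± 0.13 (adjusted p = 0.33). Mbtps2 shares 2867 exonic bases, 28.4% of its exon length, with Yy2 on the same strand, a gene that rose by 1.04 in the founders at a mean level of 6.98 over all libraries of both treatments, so part of its reads may be counted for either.

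Creb3 (ENSMUSG00000028466, chr4:43562332-43567060, plus strand) and Creb3l2 (ENSMUSG00000038648, chr6:37327255-37442146, minus strand) are ER-bound transcription factors that need the same cleavage as ATF6. Creb3l2 rose on average, by 0.39 ± 0.08 in the founders (1.31 fold, adjusted p = 0.00019, limma) and by 0.22 ± 0.06 in the crosses (1.17 fold, adjusted p = 0.0061). CAST went from 95 and 123.1 in controls to 169.7 and 179.8 under TM, the largest founder change at 0.69 ± 0.14. B6 had 178.2 and 178.3 in controls and 237.8 and 222.9 under TM, and PWK had 247.5, 251.8 and 254.0 in controls and 279.3, 337.7 and 319.6 under TM. CAST, B6, PWK and NOD showed no overlap. NOD had 148.0 and 222.5 in controls and 263.9, 259.6 and 250.3 under TM. NZO, with 247.7 and 242.9 in controls and 366.7, 380.4 and 244.7 under TM, overlapped through TM replicate 3. In B6x129, where Creb3l2 was induced, levels were 120.8, 126.3 and 103.9 in controls and 164.5, 202.8 and 179.4 under TM (1.56 fold, adjusted p = 0.0027). B6xNOD was lower under TM, with 159.3, 154.8 and 169.0 in controls and 136.0 and 136.4 under TM (-0.24 ± 0.09). Without the F1 libraries of lowest length shift the cross average was 0.19 ± 0.06 (adjusted p = 0.012), no longer called, and the call was also lost in 10 of the 28 fits that left out 1 library. With the shift as a covariate the average was 0.28 ± 0.04 (adjusted p = 9.3e-06). Creb3 stayed within overlapping ranges in 6 of 8 founders. The exceptions were B6 and WSB, and WSB had the largest change, from 110.3 and 117.9 in controls to 166.8, 157.8 and 164.5 under TM (0.51 ± 0.13, adjusted p = 0.025), beside a length shift of -0.53 for TM minus control. The averages of Creb3 were 0.13 ± 0.06 (adjusted p = 0.07) and 0.15 ± 0.06 (adjusted p = 0.05). With the shift as a covariate they were 0.14 ± 0.03 (adjusted p = 2.7e-05) and 0.09 ± 0.03 (adjusted p = 0.025). Creb3 overlaps Tln1 by 360 bases and Gba2 by 133 bases on the other strand, the former at a founder level of 1340 against 143 for Creb3, and counting was not stated to use strand.

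Whether the TM change differed between genotypes was tested by the interaction of genotype and treatment. It passed for 0 of the 9 genes in the founders, where 0.174% of all genes passed, and for 0 of 9 in the crosses, where 0.0547% did (limma). At an unadjusted limma p below 0.05 the counts were 0 and 1, the latter being Creb3l2 (adjusted p = 0.67). The share of all genes at that p was not counted. The quasi-likelihood test of edgeR on the recovered reads called 0 in either set. Of the 9 genes Eif2ak3 had the largest F among the founders (F = 1.90, adjusted p = 1.0, limma), its changes running from 0.24 in WSB to 0.82 in NOD. For Xbp1, F was 0.55 in the founders (adjusted p = 1.0) and 0.83 in the crosses (adjusted p = 0.83). A p that misses the threshold does not show that the strains respond alike, since the SE of a single founder's change reached 0.37 for Mbtps2 in NZO and 0.33 for Ern1 in A. Weighting the libraries by their quality brought Ern1 to an adjusted p of 0.034 in the founders, short of the threshold.

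The level before stress differed between founders for 3 of the 9 genes at adjusted p below 0.01, Eif2ak3, Xbp1 and Creb3l2, where 37.2% of all genes passed. Eif2ak3 was highest in PWK, at 45.5 ± 2.23 (SD, n = 3). WSB followed at 33.4 and CAST was lowest at 22.9, a 1.99 fold span (adjusted p = 9.5e-05, limma). PWK stood clear of WSB and NZO of 129, the range of A overlapped those of WSB and NZO, and 129, B6, NOD and CAST, next to each other in the order, overlapped. PWK was also highest under TM, at 54.3, apart from NZO at 45.5. Xbp1 controls ran from 145.5 in PWK and 138.2 in WSB to 97.9 in CAST, a 1.49 fold span (adjusted p = 0.0014). NZO (126.8) and A (121.0) each lay apart from the next strain down, while NOD, 129 and B6 (110.4, 107.9 and 106.5) overlapped and CAST lay below them. Creb3l2 was highest in PWK (251.1) and NZO (245.3), which overlapped each other and lay above NOD (185.3). CAST was lowest at 109.0, and the span was 2.30 fold (adjusted p = 0.0023). Leaving out the CAST control replicate 1 ended that call (adjusted p = 0.033). Atf6 and Mbtps1 spanned 1.27 fold each and Creb3 1.53 fold, with adjusted p of 0.68, 0.29 and 0.034. Ern1 spanned 2.00 fold, from 62.5 in 129 to 34.6 in PWK and 31.3 in CAST, whose libraries lay below those of the other 6 strains, but its adjusted p was 0.012. With the length shift as a covariate it was 7.2e-10, and 6 of the 9 genes passed, where 6881 of all 13197 genes did. Among the crosses 0 of 9 genes passed, beside 24.8% of all genes, with Mbtps1 nearest (adjusted p = 0.026) and spanning 119.5 in B6xNZO to 164.4 in B6xCAST. There were 2 at an unadjusted p below 0.05, Mbtps1 and Creb3l2 (limma). That threshold is looser than the one 24.8% of all genes passed, and the share of all genes at it was not counted. With the covariate 4 passed, namely Ern1, Mbtps1, Creb3 and Creb3l2, where 4230 of all 12803 genes did.

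Each cross was then set against the mean change of its parents. Of 45 pairs of gene and cross, 0 differed at adjusted p below 0.01, and 0.0111% of all such tests did (limma). At an unadjusted p below 0.05 there were 5 pairs, all in B6xNOD and all with a smaller or more negative change than B6 and NOD. The share of all genes at that p was not counted, so these differences are not shown to be particular to these genes. Over all genes the median difference in B6xNOD was -0.072. The Ern1 change was -0.57 in B6xNOD beside 0.38 in B6 and 0.43 in NOD, a difference of -0.98 ± 0.32 (95% CI -1.62 to -0.34). The difference was -0.73 ± 0.24 for Atf6, -0.68 ± 0.25 for Creb3l2, -0.53 ± 0.21 for Eif2ak3 and -0.43 ± 0.16 for Mbtps1, each with an adjusted p of 0.26. With the length shift as a covariate these were -0.35, -0.25, -0.21, -0.22 and -0.22. The change of Xbp1 in the same cross was 1.22, beside 1.24 in B6 and 1.15 in NOD, a difference of 0.03 (95% CI -0.26 to 0.31). The 5 contrasts share the B6 libraries.

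Levels of different genes can be set side by side only per kb of exon. Exon length here is the union of all annotated exons of a gene, not the length of a single mRNA. In founder controls Creb3 led with a level of 56.1 per kb, followed by Xbp1 with 36.7, Atf6b and Creb3l2 with 25.7 each, and Mbtps1 with 16.2. Atf6 stood at 9.02, Ern1 at 6.06 and Eif2ak3 at 4.97, and Mbtps2 was last at 2.04. Under TM Xbp1 moved to first place with 83.5, ahead of Creb3 with 62.0. The same pair changed places in the crosses, where Xbp1 went from 29.9 to 65.6 and Creb3 from 47.7 to 52.4. The order of Ern1 and Eif2ak3 stayed as it was, at 7.99 and 7.16 under TM in the founders.

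The lists around the sensors, also chosen with earlier results of these data known, are described by their average changes. Of 17 targets of ATF6 and XBP1, 15 rose in each set and the other 2 did not pass, with a median change of 1.59 in the founders and 1.61 in the crosses against -0.04 over all genes. Among them the ER-associated degradation gene Herpud1 rose 19.76 fold in the founders, the chaperone gene Hspa5 7.08 fold and the ubiquitin ligase gene Syvn1 4.28 fold, while in the founders the translocon gene Sec61a1 (0.13, adjusted p = 0.022) and the coat gene Sec24d (0.06, adjusted p = 0.61) did not pass. All 8 targets of PERK through ATF4 rose in both sets, with medians of 2.27 and 2.05, among them the transcription factor genes Ddit3 (CHOP, 14.92 fold) and Atf4 (2.31 fold) and the pseudokinase gene Trib3 (6.71 fold). Xbp1, at 1.18, thus changed less than the median of either target list, and the sensor genes less than Xbp1.

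Of 17 regulators and partners of the sensors, 11 rose and 4 fell in the founders, and 9 rose and 3 fell in the crosses, with a median of 0.23 in each. This list overlaps those above, since Hspa5, Dnajb9 and Sdf2l1 are also counted among the ATF6 and XBP1 targets and Ppp1r15a among the PERK targets. Over all genes 20.5% rose and 21.9% fell in the founders, and 16.9% and 18.7% in the crosses, so the number that fell was near the background. Those that rose included genes for proteins that hold the sensors in check, Hspa5 and its co-chaperones Dnajb9 (7.37 fold) and Dnajc3 (2.87 fold), and Ppp1r15a (3.55 fold), whose product undoes the phosphorylation by PERK. Traf2, an adaptor of IRE1, rose 1.41 fold. The 4 that fell in the founders were the phosphatase gene Ptpn1 (0.80 of control), the IRE1 inhibitor gene Tmbim6 (0.83), the NF-Y subunit gene Nfya (0.84) and the kinase gene Map3k5 (0.77), and the last did not pass in the crosses (adjusted p = 0.066). Of 7 relatives of the sensors and of Creb3, 5 were listed and Creb3l3 and Ern2 were not. Eif2ak4, the amino acid sensing kinase of the PERK family, fell in both sets (0.84 and 0.80 of control). Creb3l4 rose 1.52 fold in the founders from a level of only 0.573, and Creb3l1, Eif2ak1 and Eif2ak2 did not pass in either set. Of 5 genes tied to the same proteases through cholesterol or lysosomal sorting, 4 fell in each set and Srebf1 did not pass (-0.12, adjusted p = 0.027 in the founders and -0.10, adjusted p = 0.24 in the crosses, limma), with medians of -0.46 and -0.37. In the founders Srebf2 fell by 0.55 on the log2 scale, Gnptab by 0.54, Insig1 by 0.46 and Scap by 0.35.

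**Figure D5:**
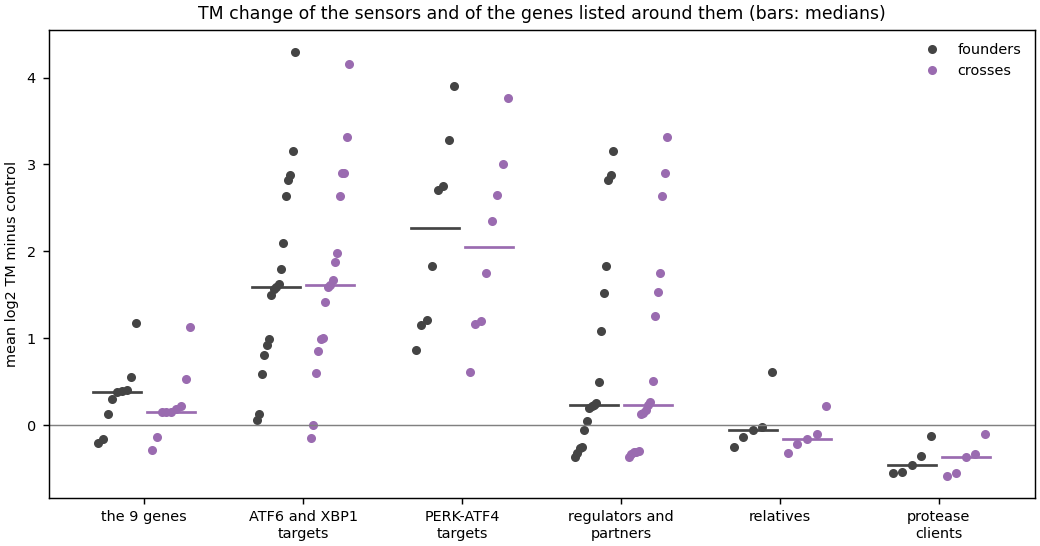
Change under TM (log2, averaged over founders or crosses) of the 9 genes and of the listed genes around them, each point a gene and each bar a list's median. The PERK and ATF4 targets sit highest (medians 2.27 and 2.05), and the protease clients lie lowest (-0.46 and -0.37).

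Across all libraries of both treatments, the genes whose levels ran most like Xbp1 were Herpud1, Syvn1 and Hspa5, with Pearson r of 0.97, 0.97 and 0.96 over the 40 founder libraries and 0.98 each over the 28 F1 libraries, among 11238 genes compared. These r, and those that follow, describe libraries that share treatment, genotype and scaling and differ in length shift, whose part in them was not tested. Eif2ak3 was most like Alg12 (0.88), Mia3 (0.86) and Uggt1 (0.85), genes of glycan assembly, ER export and glycoprotein folding, and in the crosses r was 0.82, 0.79 and 0.70. Creb3l2 had Slc38a2, Qrich1 and Mia3 (0.85 each), at 0.56, 0.31 and 0.65 in the crosses. Ern1 was most like Fosl2 (0.92 and 0.88), followed by Plcxd2 (0.86 and 0.46) and Bach1 (0.85 and 0.76). Atf6 had Rlf, Nktr and Kdm6b (0.88, 0.87 and 0.87), at 0.89, 0.88 and 0.72 in the crosses. Atf6b had Map7d1, Ehd1 and Itgb5 (0.87, 0.85 and 0.85), at 0.80, 0.65 and 0.42. For Mbtps1 the nearest genes were Nfix, Lrp1 and Bicc1 (0.91, 0.90 and 0.90), at 0.84, 0.91 and 0.83 in the crosses, and for Mbtps2 they were Vgll3, Pias2 and Bmi1 (0.88, 0.87 and 0.87), at 0.84, 0.45 and 0.72. Creb3 was most like Ppp4c, Eif3d and Cnpy2 (0.88, 0.85 and 0.85), at 0.57, 0.73 and 0.67 in the crosses.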

How the data were processed

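Single-end mRNA-seq reads were aligned by the authors to strain-specific mouse genomes with TopHat 1.4.1 (builds named in the submitters' processing notes: GRCm38 and mm10), scaled over libraries by TMM in edgeR, and libraries that did not cluster with their condition were removed. The deposited signal values are called FPKM by the authors, but every library's values are whole multiples of 1 step per gene with no division by length, so they were read as TMM-scaled RPM. Whole reads were recovered in 66 of 68 libraries, where 100.0% of values came out whole within 0.1 read. Founders and crosses were scaled apart, counting was not stated to use strand, and 3 lines without a gene name in the F1 tables (15.47% to 24.15% of their total) were left out.

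Values were analysed as log2(value + 0.1) with limma 3.58.1 (R 4.3.3; eBayes with trend) after dropping genes below 0.5 in all but 1 library or in all. Each genotype was tested for TM against control (Benjamini-Hochberg adjusted p below 0.01 over all genes tested and at least 1.5 fold). The average over genotypes, the interaction, the control levels and the crosses against their parents were tested at adjusted p below 0.01. These limma fits were also run on simulated data, while the alternatives and the other steps were not. On the recovered reads, edgeR 4.0.16 called 2573 genes higher and 2659 lower on average in the founders, and 2365 and 2245 in the crosses. Exon lengths and overlaps came from the GRCm38 annotation and start windows from RefSeq. The alternatives were other pseudocounts, filters, scalings, prior variances, library weights, a replicate block, the study's own test of log2(TM / median control), a 5% rate, leaving out each library and, added after the data were seen, the length shift as a covariate or without the libraries of lowest shift.

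The 9 genes and the lists around them were chosen with earlier results of these data known. Named genes are the 9, the 3 genes most correlated with each in the founders, and the members of the lists, of which some are not reported here and were left out of the counts and medians of their lists. No protein sequences were used here.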

Additional observations from a re-analysis of the deposited data

How the results depend on the processing

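Depth and replication limit these values: most genotypes had 2 or 3 libraries an arm, and a single founder's change carried an SE of up to 0.37. Values of single genes were recomputed 7623 times, and 7357 kept their direction and side of the threshold, 41 lost a call, 100 gained one, 125 moved without a call and 0 reversed. At a 5% rate the genes higher on average over the crosses went from 3 to 5, those lower over the founders from 1 to 2, induced founder pairs from 8 to 15, lowered cross pairs from 0 to 1, and control-level calls from 3 to 5 in the founders and from 0 to 1 in the crosses. With the length shift as a covariate, chosen after seeing the data, 5 genes were higher over the crosses and 2 lower over the founders. Control levels then passed for 6 genes in the founders and 4 in the crosses. Without the 4 libraries of lowest shift, also chosen after seeing the data, control levels passed for 5 and 2. Calls over all genes rose as well. For the control levels they went from 4915 in the founders and 3176 in the crosses to 6881 and 4230 with the covariate. They went to 5766 and 3246 without the 4 libraries, and to 6510 and 4282 at the 5% rate. Of all genes, those higher over the crosses went from 2163 to 2598 with the covariate, and those lower over the founders from 2887 to 3861. Median-of-ratios scaling and library weights each gave 2 genes lower over the founders, beside 3056 and 3639 of all genes. Without a trend in the prior variance, 3 founder and 2 cross pairs were induced instead of 8 and 5, and 1 fit over all libraries of a set gave 1 lowered cross pair, Mbtps1 in B6xNOD. The cause of these shifts was not tested.

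Whether replicate numbers pair the samples was left undecided. Of 29 same-numbered pairs of libraries 11 had r above 0.1, and r ran from -0.637 to 0.489 with a median of 0.028. These r compare deviations from group means, which mirror each other in the smallest groups. They are therefore not independent and cannot exclude pairing. With a replicate block, 10 of the 54 founder pairs that could be fitted were induced, against 5 of the same pairs without it, and the block left the counts on average over founders (5 and 1) and crosses (3 and 1), of interactions (0 and 0) and of control levels (3 and 0) as they were.

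Leaving out 1 library at a time gave 5 to 6 genes higher and 1 to 2 lower over the founders, and 2 to 4 higher and 1 to 1 lower over the crosses. Lower counts of 2 came without TM replicate 2 of 129, control replicate 2 of A, TM replicate 3 of NZO or TM replicate 3 of WSB. Induced founder pairs ran from 7 to 14, with 12 without control replicate 3 of NOD, 13 without control replicate 3 of CAST and 14 without TM replicate 3 of NZO, and lowered pairs stayed at 0 to 0. Induced cross pairs ran from 4 to 6 and lowered pairs from 0 to 2, with 2 without TM replicate 2 of B6xNOD. Control levels passed for 2 to 5 genes in the founders, 5 without TM replicate 2 of A, and for 0 to 1 in the crosses, 1 without control replicate 1 of B6xWSB. Interactions stayed at 0 to 0 in both sets, as did crosses against their parents. The founder average of Mbtps2 gained a call without TM replicate 3 of A (0.32), of NZO (0.35) or of WSB (0.35), and the cross averages of Atf6 and Creb3 without control replicate 3 (0.23) and control replicate 1 (0.18) of B6xWSB. The average rise of Creb3l2 in the crosses lost its call in 10 of 28 such fits, at 0.20 to 0.22, namely without control replicate 3 or TM replicate 2 of B6x129, control replicate 2 or TM replicate 1 of B6xCAST, control replicate 2, TM replicate 1 or TM replicate 2 of B6xNOD, control replicate 1 or TM replicate 1 of B6xNZO, or TM replicate 2 of B6xWSB. Within genotypes, Atf6 in PWK was no longer called without control replicate 2 (0.58), TM replicate 2 (0.57) or TM replicate 3 (0.57) of PWK, Eif2ak3 in B6 without control replicate 3 (0.49), Xbp1 in NOD without TM replicate 3 (1.14), and Creb3l2 in B6x129 without control replicate 1 (0.66), control replicate 3 (0.56) or TM replicate 2 (0.56). Xbp1 lost its call in B6xCAST without control replicate 3 (1.15), in B6xNOD without any 1 of its controls (1.19 to 1.27) and in B6xNZO without control replicate 2 or any 1 TM library (1.09 to 1.22). Over all genes the founder interaction went from 23 to 37 with a pseudocount of 1, 38 at a 5% rate, 50 with the covariate, 225 with library weights, 456 by the study's own test and 13 by edgeR, and the cross interaction from 7 to 14 at a 5% rate, 13 with the covariate and 36 with library weights.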
